A study of Macaca mulatta with 22 samples.

Results

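CAMK2A, CAMK2B, CALM3 and ADCY1 are 4 genes of calcium and cyclic AMP signalling whose mRNAs were followed through 11 lists of m6A peaks, 1 list per animal. Their identifiers are 4 of the 3671 gene identifiers with a peak in any list, and 51 of the 10069 peaks lay in these 4 genes. The genes were chosen by name as a signalling group and by the presence of their peaks: CAMK2B, CALM3 and ADCY1 had a peak in every list, as 81 genes did, and CAMK2A was taken beside CAMK2B. Their presence is therefore given as a description and not tested. N6-methyladenosine (m6A) is a methyl mark on adenosines of mRNA, and m6A-seq pulls down RNA fragments that carry it with an antibody and lists the enriched stretches as peaks.

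The material was total RNA of the prefrontal cortex of rhesus macaques (Macaca mulatta), all sampled at postnatal day 35. Treated animals had breathed sevoflurane, an inhaled general anaesthetic, at about 2.5 to 3% for 4 h at about 7, 21 and 35 days of age. The 5 treated animals were 2 males (D and S1) and 3 females (F, S2 and S3), and the 6 controls were 2 males (A and B) and 4 females (C, C1, C2 and C3). The sources used here do not say what the control animals received, and name no strain or genotype. The comparison addresses whether repeated exposure in infancy is followed by other m6A peaks. Lists held 452 to 1210 peaks in controls and 852 to 1673 after sevoflurane. The longest control list, that of C3, lay within the treated range. List length moves with treatment, and its part in the results below was examined only where lists were cut to equal length. That cut was made on the called peaks, so it does not equalise reads and leaves the width of each kept peak unchanged. Read totals are unknown, and their part was not tested. In bulk tissue, fewer cells of a type and less RNA per cell cannot be told apart, and no RNA level enters the comparisons.

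Calcium that enters a neuron binds calmodulin, a small calcium sensor. Calcium-loaded calmodulin switches on CaM kinase II, whose alpha and beta subunits, encoded by CAMK2A and CAMK2B, assemble into holoenzymes that are abundant at excitatory synapses and take part in synaptic plasticity. CALM3 is one of several genes that encode the same calmodulin protein. Calcium-loaded calmodulin also stimulates the adenylyl cyclase encoded by ADCY1, which makes cyclic AMP and so links calcium entry to protein kinase A.

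Each of the 3 genes with a peak in every list had a region that all 11 animals shared, and each region lay within a few kilobases of the annotated 3′ end of its gene. A region here joins same-strand peaks that share 1 exonic bp or more. Coordinates are those of rheMac8, the assembly in the submitters' processing notes. Of the 81 genes with a peak in every list, 75 had at least 1 such shared region. By the midpoint of the peak with the highest enrichment, ADCY1 lay at 97.9% and CAMK2B at 97.8% of the way along the gene's span from 5′ to 3′, and CALM3 at 78.2% (medians over animals). These stood 5th, 6th and 36th among the 81 genes, whose median was 74.6%. The span includes introns, so the long introns of ADCY1 and CAMK2B enter these positions.

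**Figure D1:**
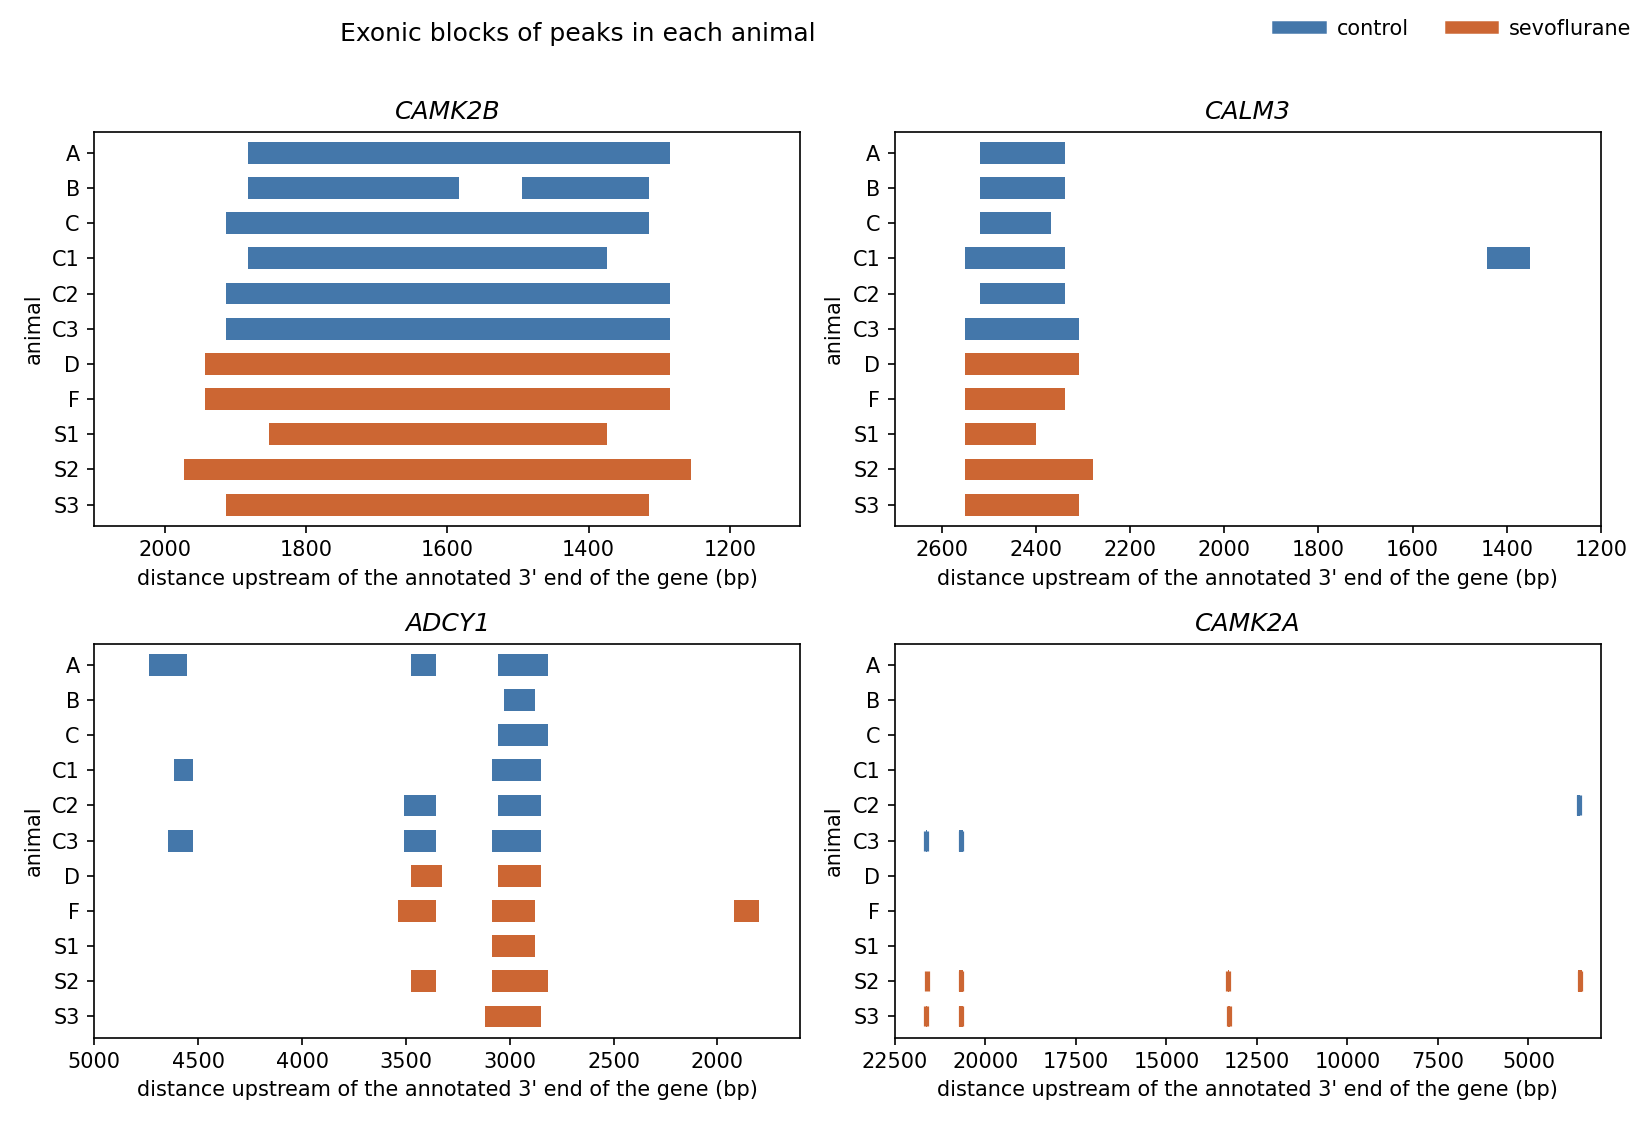
Exonic blocks of the peaks of CAMK2B, CALM3, ADCY1 and CAMK2A in each of the 11 animals (rows; blue, control; orange, sevoflurane), placed by their distance in bp upstream of the annotated 3′ end of the gene, with the 3′ end to the right. Blocks are to scale except that in the CAMK2A panel a tick marks each block; 1 ADCY1 peak of animal F, 53756 to 56079 bp from the 3′ end, lies outside the panel. The CAMK2B, CALM3 and ADCY1 rows share a block in all 11 animals, whereas CAMK2A is empty in 7.

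CAMK2B, the beta subunit of CaM kinase II, carried a broad peak in its 3′ UTR. The region ran on chromosome 3 from 64570241 to 64570958 (plus strand, 718 bp without an intron), 1255 to 1972 bp from the annotated 3′ end of the gene (64499663 to 64572213). Every animal of both groups had it. All 12 CAMK2B peaks lay in it, all in 1 block, because control B had 2 peaks there with a gap between them. Over all animals 391 bp were covered in every list. CAMK2B peaks were long: 0.894% of all peaks had at least as many exonic bases as the median CAMK2B peak of 598 bp, and the median of all peaks was 150 bp.

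Exonic bases under CAMK2B peaks ranged from 480 to 628 in controls with a median of 598. After sevoflurane they were 658 in D, 658 in F, 479 in S1, 718 in S2 and 598 in S3. D, F and S2 lay above every control, and S1 lay just below them all, so the groups overlapped. The control mean was 574 ± 63.3 bp (SD, n = 6) and the treated mean 622 ± 90.6 bp (SD, n = 5). By geometric means the treated group covered 1.08 times the control length (95% interval 0.895 to 1.28). A two-sided exact permutation test over 462 splits of the animals gave p = 0.372, or 0.667 adjusted over 81 genes. The upstream edge lay at 64570301 or 64570331 in the 6 controls (3 each, counting the upstream of the 2 peaks of B), at 64570271 in D and F, at 64570241 in S2, at 64570301 in S3 and at 64570361 in S1. Edges lay mostly on steps of 30 bp, which limits how finely lengths can be compared.

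CALM3, a calmodulin gene, carried a compact peak in its 3′ UTR. The region lay on chromosome 19 from 41942381 to 41942651 (plus strand, 271 bp), 2279 to 2549 bp from the 3′ end of the gene (41933784 to 41944930), and was present in all 11 animals. A core of 121 bp, from 41942411 to 41942531, was covered in every one of them. Control C1 had another peak of 91 bp nearer the 3′ end, at 41943490 to 41943580, which no other animal had.

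Exonic bases under CALM3 peaks ranged from 151 to 302 in controls with a median of 181. After sevoflurane they were 241 in D, 211 in F, 151 in S1, 271 in S2 and 241 in S3. The highest control, C1, lay above every treated animal, and the lowest value, 151, occurred in both groups. The means were 206 ± 55.4 bp (SD, n = 6) and 223 ± 45.5 bp (SD, n = 5), in controls and treated animals. By geometric means the treated group covered 1.09 times the control length (95% interval 0.779 to 1.51). The same exact permutation test gave p = 0.556, adjusted to 0.751. Without the animals with single-letter names, leaving 3 against 3, the log2 difference turned from 0.13 to -0.14 (exact permutation p = 0.700). Among the animals with single-letter names alone, 3 against 2, it was 0.40 (exact permutation p = 0.10, the smallest such a split allows). The upstream edge of the shared region lay at 41942381 in 5 of 5 treated animals and in controls C1 and C3, and 30 bp further downstream in controls A, B, C and C2. This edge was singled out after its values were seen and was not tested. C1 and C3 had the shortest and the longest control list, 452 and 1210 peaks. The log10 p-value of the peak in the shared region was -143 in C1 and -89.2 in C3, and -50.5 to -40.7 in A, B, C and C2. In treated animals it was -148 to -90.6 in D, F, S2 and S3, and -43.9 in S1. The part of peak strength or list length in this edge was not tested.

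ADCY1, the calmodulin-stimulated adenylyl cyclase, had more peaks per animal than the other members: 22 in all, in 5 regions. Its shared region spanned 63086037 to 63086336 of chromosome 3 (300 bp, minus strand), 2817 to 3116 bp from the 3′ end of the gene (63083220 to 63224959), with a core of 150 bp covered in every animal. The authors' annotation places it in exon 1 of 20. The numbers rise with genomic coordinate in this minus-strand gene, where the peak of exon 14 lies at the higher coordinate, so exon 1 is the exon nearest the 3′ end. CAMK2B and CALM3 peaks have the class 3′ UTR, and ADCY1 peaks have the class exon, which does not say whether they are coding.

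A further ADCY1 region, 3326 to 3536 bp from the 3′ end (63086546 to 63086756), was present in controls A, C2 and C3 (3 of 6) and in treated D, F and S2 (3 of 5), with p = 1.0 by Fisher's exact test. The next, 4525 to 4734 bp from the 3′ end (63087745 to 63087954), was present in controls A, C1 and C3 but in 0 of 5 treated animals. Fisher's exact test gave p = 0.182, or 0.610 adjusted over 1265 regions. It had the lowest enrichments of these 3 regions, with the authors' fold enrichments of 2.20 to 3.20. At this group size the counts of 3 and 0 did not pass the test, and 19 regions (1.50% of those tested) passed an unadjusted p of 0.05 in favour of sevoflurane, 0 (0%) in favour of controls and 0 (0%) after adjustment. Treated animal F alone had a peak 1798 to 1918 bp from the 3′ end, and another in 2 blocks, annotated to exon 14, at 63136976 to 63139299. All ADCY1 peaks but that one lay in the exon nearest the 3′ end.

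Exonic bases under ADCY1 peaks varied more between animals than those of CAMK2B or CALM3. They ranged from 150 to 541 in controls with a median of 346. After sevoflurane they were 361 in D, 692 in F, 210 in S1, 391 in S2 and 270 in S3. Control B lay lowest and treated F highest, with the rest intermixed. The means were 356 ± 152 bp (SD, n = 6) and 385 ± 186 bp (SD, n = 5), in controls and treated animals. By geometric means the treated group covered 1.09 times the control length, with a wide interval (95%, 0.582 to 2.11). The exact permutation test gave p = 0.766, adjusted to 0.913. The log2 difference of 0.12 turned to -0.10 without B, to -0.12 without F, to -0.05 in males alone and to -0.49 in the animals with numbered names alone, and was 0.89 in those with single-letter names, so these data give it no direction. ADCY1 had 2.00 ± 0.894 peaks per control animal (SD, n = 6) and 2.00 ± 1.22 per treated animal (SD, n = 5). The equal means held opposite differences: treated animals had 1.33 more peaks than controls among single-letter names and 1.0 fewer among numbered names (exact permutation p = 0.30 each), and 0.50 fewer without F.

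**Figure D2:**
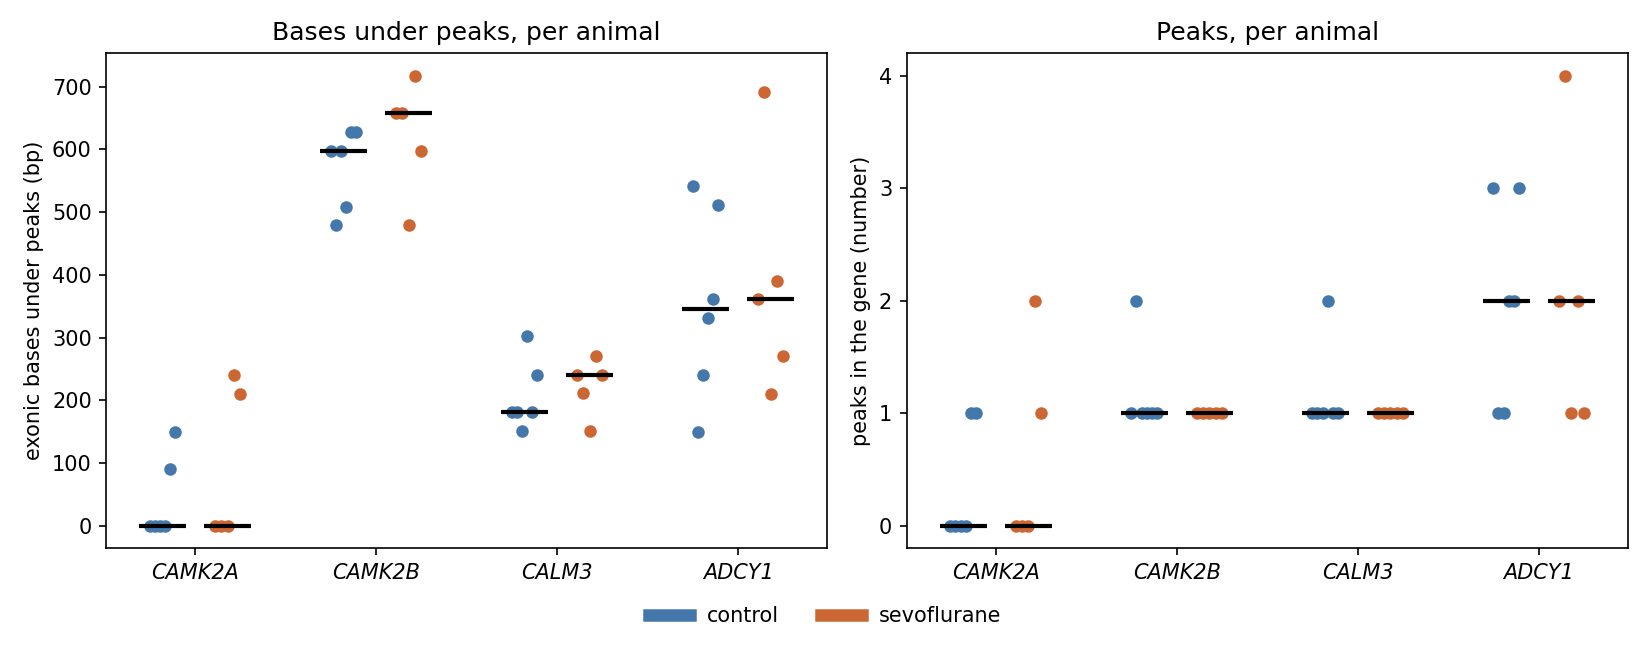
Left, exonic bases under the peaks of each gene (bp); right, number of peaks in the gene; each point is 1 animal (blue, 6 controls; orange, 5 sevoflurane animals) and the bar is the group median. The groups overlap for every gene: CAMK2B spans 480 to 628 bp in controls and 479 to 718 bp after sevoflurane.

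The log2 differences in exonic bases of CAMK2B (0.11), CALM3 (0.13) and ADCY1 (0.12) lay below the median of the 81 genes with a peak in every list, 0.29, of which 71 had a higher mean after sevoflurane. Of these 81 genes, 8 (9.88%) were higher and 1 (1.23%) lower at an unadjusted exact permutation p under 0.05, and 0 (0%) passed the adjustment, the smallest adjusted p being 0.351. None of the 3 members was among those with an unadjusted p under 0.05. For the number of peaks, 3 genes (3.70%) were higher and 0 (0%) lower at an unadjusted p under 0.05, and 0 (0%) passed the adjustment. CAMK2B and CALM3 each had 1.17 peaks per control animal and 1.0 per treated animal, through the second peak of B and that of C1 (exact permutation p = 1.0 for each). The treatment difference in exonic bases of females minus that of males was 0.09 for CAMK2B, 0.11 for CALM3 and 0.31 for ADCY1 on the log2 scale (exact permutation of sex within treatment over 150 relabellings, p = 0.807, 0.787 and 0.747). Without C3 the 3 treatment differences were 0.14, 0.18 and 0.25.

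The animals' peaks coincided most closely in CAMK2B. The Jaccard index, the shared share of the exonic bases that either of 2 animals covered, averaged 0.851 over the 55 pairs of animals for CAMK2B, 0.738 for CALM3 and 0.507 for ADCY1. For CAMK2B it was 0.861 between controls, 0.841 between treated animals and 0.849 across the groups. For CALM3 the averages were 0.754, 0.783 and 0.715, and for ADCY1 0.50, 0.505 and 0.512. Pairs across the groups were thus about as alike as pairs within them for CAMK2B and ADCY1, and lower by a few hundredths for CALM3. These averages were not tested.

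CAMK2A, the alpha subunit of CaM kinase II, had peaks in 4 of 11 animals, controls C2 and C3 and treated S2 and S3. The shares, 2 of 6 and 2 of 5, differed by 6.67 percentage points, with p = 1.0 by Fisher's exact test before and after adjustment over 1482 genes. All 4 were among the 7 females and among the 6 animals with numbered names, and none of the 4 males or of the 5 animals with single-letter names had a CAMK2A peak. Their lists held 703 to 1673 peaks, and those of the other 7 animals 452 to 1178. Sex and naming style were not tested for CAMK2A, since the pattern was seen in the data first. Without S2 or without S3 the difference turned to -8.33 percentage points.

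The CAMK2A peaks fell into 2 regions of the gene, which lies on chromosome 6 from 148353069 to 148424206 (minus strand). One, at 148356603 to 148356723, lay 3534 to 3654 bp from the 3′ end in exon 1 of 19, the exon nearest the 3′ end by the same rising numbering, and was found in C2 and S2. There the gene overlaps SLC6A7, a transporter gene of the opposite strand, over 4481 bp, and the authors' annotation column gives SLC6A7 for both peaks. SLC6A7 had 9 peaks of its own, 11522 to 11672 bp away from this region. The sources used here do not say whether reads were assigned by strand, so reads of the 2 genes in the overlap cannot be told apart. By the gene of the annotation column CAMK2A was present in C3, S2 and S3 only.

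The other CAMK2A region, at 148366321 to 148374714, joined blocks of up to 3 exons with 120 exonic bases covered in C3, S2 and S3 alike. It was found in 1 of the 6 controls and in 2 of the 5 treated animals; Fisher's exact test gave p = 0.545, adjusted to 0.906. Peaks over 3 or more blocks made up 9.70% of all peaks, and those in 1 block 64.1%. The covered length of CAMK2A was 91 bp in C2, 150 in C3, 241 in S2 and 210 in S3. CAMK2A thus had a called peak in the exon nearest its 3′ end in 2 animals, whereas its partner subunit CAMK2B had one near its 3′ end in each of the 11.

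The authors' fold enrichment and p-value describe each peak within its own list. They were not tested between animals, and values given side by side describe each animal's own list. A gene's rank is its percentile among the genes of that animal's list, by the highest enrichment or the lowest p-value of its peaks. The lists differ in length, so a difference in rank between animals cannot be read as a change. By p-value CALM3 and CAMK2B stood high, with medians over animals of 96.9 and 94.1, and ADCY1 stood at 84.8, beside a median of 91.5 over the 81 genes with a peak in every list. By enrichment all 3 stood below the median of those genes, 77.6, at 71.7 for ADCY1, 63.0 for CALM3 and 61.3 for CAMK2B. CALM3 had log10 p-values of -148 to -40.7 with enrichments of only 6.50 to 12.8. The median difference between the 2 percentiles was 33.7 points for CALM3 and 32.1 for CAMK2B, 12th and 13th of the 81 genes, whose median was 10.3.

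Among these 3 genes ADCY1 had the highest median enrichment percentile and the lowest by p-value. The median over animals of the difference between its 2 percentiles was 12.3 points. The enrichment of its strongest peak ranged from 10.9 to 42.4 in controls with a median of 22.3. After sevoflurane it was 12.8 in D, 8.17 in F, 38.9 in S1, 10.1 in S2 and 16.6 in S3. Its log10 p-values ran from -27.0 to -7.81. CAMK2B enrichments ran from 4.10 to 23.3, both extremes in controls, and from 6.61 to 14.1 after sevoflurane. CAMK2A had the lowest ranks by enrichment, 41.2 in C2, 1.15 in C3, 20.5 in S2 and 15.2 in S3, and ranks of 76.2, 93.0, 92.2 and 97.4 by p-value.

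**Figure D3:**
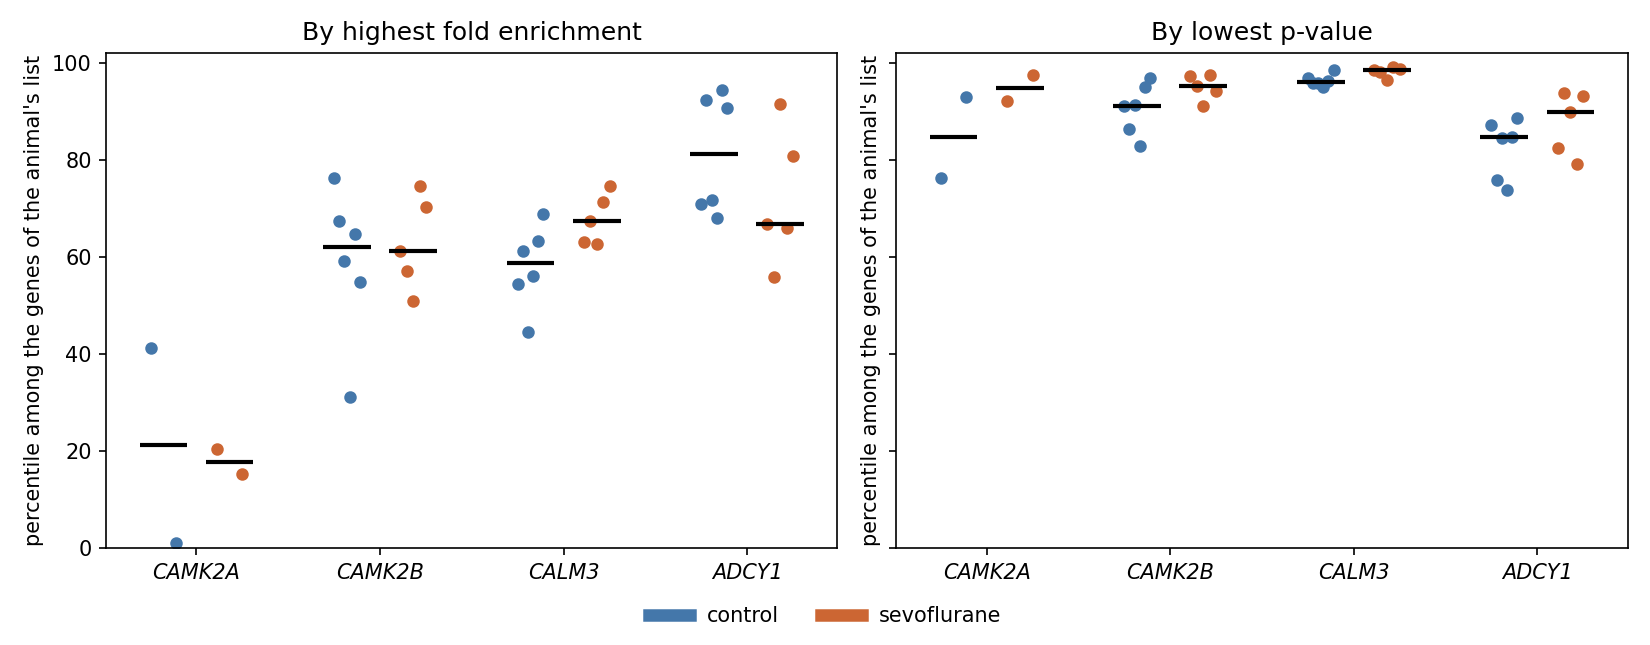
Percentile of each gene among the genes of an animal's list, by its highest fold enrichment (left) and its lowest p-value (right); points are animals (blue, control; orange, sevoflurane), animals without a peak are left out, and bars are group medians. CALM3 stands between 95 and 99.1 by p-value and between 44.6 and 74.7 by enrichment.

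The genes most like each member by enrichment percentile over the 11 animals (mean absolute difference, absence counted as 0) were as follows. For CAMK2B they were HNRNPA2B1 at 7.03 points, CDK11B at 9.02 and CALM3 itself at 10.4. For CALM3 they were KIF1A at 8.30, EIF4G1 at 9.10 and TSPYL1 at 9.35, and for ADCY1 they were CHD3 at 8.53, OGA at 12.6 and SYP at 12.9. All of these had a peak in 11 of 11 animals. For CAMK2A they were ABCC5 at 1.84, CCDC47 at 2.65 and GLYR1 at 3.08, with peaks in 2, 4 and 2 animals, where shared absence makes the differences small.

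The other genes of calcium and cyclic AMP signalling were taken from 9 lists that leave out the 4 members. Of these 83 genes, 42 had a peak in any animal, 18 of them in a single animal and 23 in 2 to 9 animals. The whole series held 3671 gene identifiers. With each symbol counted once, 1482 genes had a peak in 2 to 9 animals and 81 in every list. Of the 83, 0 had a peak in all 11, but CAMK2B, CALM3 and ADCY1, which did, are not among them. GAP43, a growth-cone protein that binds calmodulin, had a peak in 9 animals, 5 controls and 4 treated. GNAO1, an alpha subunit of inhibitory-type G proteins, also had one in 9, 4 controls and 5 treated. GNAO1 had its peak in the same region in all 9 animals, on chromosome 20 from 40323497 to 40323706 (plus strand).

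Each of the close relatives of the members had a peak in 3 animals at most. The delta subunit gene of CaM kinase II, CAMK2D, had 1 peak, in S1, and the gamma subunit gene CAMK2G had none. CALM2, another calmodulin gene, had 1 peak, in C1. Of 7 other adenylyl cyclases 5 had a peak: ADCY3 in D, S1 and S2, ADCY6 in C3 and S3, ADCY2 in S1, ADCY5 in S1 and ADCY8 in S3. Adenylyl cyclases other than ADCY1 thus averaged 0.167 ± 0.408 genes per control animal (SD, n = 6) and 1.40 ± 1.14 per treated animal (SD, n = 5), while the lists themselves held 664 ± 282 and 1217 ± 295 peaks. As a share of an animal's genes with a peak, they made up 0.0159 ± 0.0390% in controls and 0.153 ± 0.157% in treated animals. The difference was not tested. It was the largest rise of the 9 lists, and the control value came from ADCY6 in C3 alone. The mean share was also higher in treated animals for CaM kinases and for calcium channels, pumps and exchangers. It was lower for calmodulins and calmodulin-binding proteins, calcineurin, G protein alpha subunits, cAMP effectors and anchors, and phosphodiesterases. Protein kinase C and phospholipase C genes had no peak. By the same measure, all 83 genes together made up 1.45 ± 0.251% per control (SD, n = 6) and 1.41 ± 0.255% per treated animal (SD, n = 5), though their number went from 8.67 ± 3.67 to 14.4 ± 2.51.

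Single genes could be tested where 2 to 9 animals had a peak, which held for 23 of the 83. Of these 17 had the larger share of animals after sevoflurane and 6 in controls, with a median difference of 13.3 percentage points. Over all 1482 tested genes the median was 23.3, with 1233 of them larger after sevoflurane. None of the 23 passed an unadjusted Fisher's exact p of 0.05 in either direction. Of all tested genes 27 (1.82%) did in favour of sevoflurane, 0 (0%) in favour of controls and 0 (0%) after adjustment. At so small a share, 0 of 23 does not set these genes apart. ADCY3, RYR3 (a calcium release channel of internal stores) and ATP2B2 (a plasma membrane calcium pump) were each found in 3 of the 5 treated animals and 0 of the 6 controls, with p = 0.0606 by Fisher's exact test and 0.606 adjusted. RYR3 had its peaks in F, S2 and S3, the 3 treated females, against 0 of 4 control females (Fisher's exact p = 0.0286, adjusted p = 0.562). That is the smallest p that 3 against 4 animals allows. In females alone, 24 of all tested genes had an unadjusted Fisher's exact p under 0.05 in favour of sevoflurane. The number of genes tested in females alone is not given here. F, S2 and S3 shared an RYR3 region on chromosome 7 from 9203369 to 9203579 (plus strand). ATP2B2 also had 1 region in all 3 of its animals, whereas no ADCY3 region was found in more than 2.

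AKAP9, which encodes a scaffold that anchors protein kinase A, was found in controls A, C, C2 and C3 and in 0 of the 5 treated animals (Fisher's exact p = 0.0606, 0.606 adjusted). Its peaks lay in several regions, of which the most shared held a peak in 2 of these controls. ATP2B1, another plasma membrane calcium pump, had one in controls B, C2 and C3 and in 0 of the 5 treated animals (Fisher's exact p = 0.182, 0.606 adjusted), in a different region in each of the 3. ATP2B3, a further pump, had one in C1 only. With 1 animal left out, ADCY3 had a Fisher's exact p of 0.0333 without F or without S3, ATP2B2 without D or without S3 and RYR3 without D or without S1, and AKAP9 one of 0.0476 without B or without C1. None of these passed the adjustment. In each case the animal left out had no peak in that gene. Of all tested genes, 55 had an unadjusted p under 0.05 in favour of sevoflurane without D, 56 without F, 85 without S1 and 69 without S3 (Fisher's exact test). The numbers of genes tested in these settings are not given here. Nor is the count in favour of controls without B or without C1, so the AKAP9 values stand without one.

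**Figure D4:**
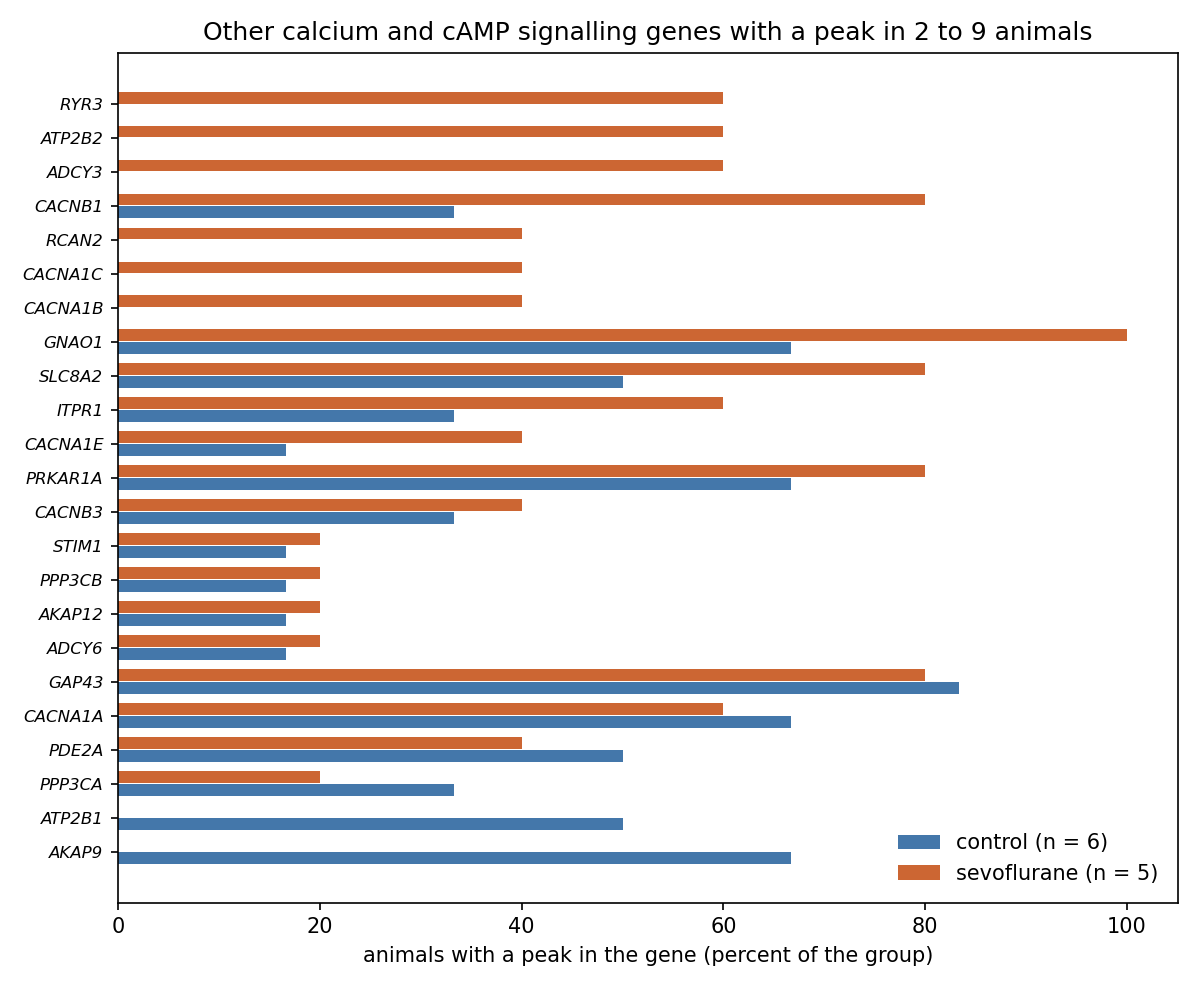
Percent of animals of each group (blue, 6 controls; orange, 5 sevoflurane animals) with a peak in each of the 23 other calcium and cyclic AMP signalling genes that had a peak in 2 to 9 animals, ordered by the difference between groups. ADCY3, ATP2B2 and RYR3 reach 60% after sevoflurane and 0% in controls, and AKAP9 and ATP2B1 have bars in controls only.

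Peak lists do not give RNA levels, so the labelled tissue could be checked only by which marker genes had peaks. Of 5 markers common to neurons, 3 had a peak, RBFOX3 in 7 animals, SYT1 in 2 and NEFL in 1. Among excitatory neuron markers CAMK2A was the only 1 of 5 with a peak. No animal had a peak in more than 2 markers of any list. Endothelial markers had peaks in 0 of 4 genes, and astrocyte and microglia markers each in 1 of 5 genes, that gene in 1 control animal. Oligodendrocyte CNP had a peak in 6 animals, MBP in 1 treated animal and the precursor marker PDGFRA in 3 treated animals, and inhibitory neuron SLC32A1 in 5 animals. Of 6 markers of other tissues MYH6 had a peak in 2 controls. The part of cell composition in the results was not tested.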

How the data were processed

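Per the submitters' processing notes, reads were handled with Trim Galore 0.5.0, cutadapt, HISAT2 2.1.0 and StringTie on rheMac8. Peak caller: not given in the sources used here. Each of the 11 immunoprecipitated samples has a deposited peak table. The 11 input samples were not analysed here. Per the file headers each peak has a p-value, log10 scores of its p-value and false discovery rate, and a fold enrichment (a ratio), all by the authors. In the files p-values reach 0.00100 and enrichments start at 2.06. Depth is unknown, so no counting interval is given. The number of animals limits the precision.

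Starts count from 0 (in all 10069 peaks the blocks then end at the peak's end), so 1 was added. A peak belongs to the gene of its name column, matched without version to the supplied names. A symbol with several identifiers counted once. Exonic bases per gene and numbers of peaks were compared by two-sided exact permutation over animals for the 81 genes with a peak in every list. Regions and genes present in 2 to 9 animals were compared by Fisher's exact test. P-values were adjusted by Benjamini-Hochberg over all features tested. Intervals hold the shifts not rejected at 0.05. Python 3.11.15, numpy 2.4.6, scipy 1.17.1 and pandas 2.3.3 were used, and the tests were tested on simulated data.

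The members, the lists of signalling and marker genes and the tests were chosen with earlier results of these data known. Named were the members, list genes with a peak in 9 or more animals, the 3 in each direction with the largest difference in share (ties by symbol), every other calmodulin, CaM kinase II and adenylyl cyclase gene with a peak, and the 3 genes most like each member; some genes under this rule are not reported here. Each label names a separate animal. Alternatives were a p-value of at most 1e-05, lists of 452 peaks (lowest p-values), each sex, each naming style, a replicate block, the annotated gene, the linear scale, 50% reciprocal overlap, no filter on animals, and leaving out each animal.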

Additional observations from a re-analysis of the deposited data

Results flagged for a closer look

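In 12 groups of values of CAMK2B, CALM3 and ADCY1 (exonic bases and number of peaks, in controls and after sevoflurane), 2 had an animal far from the rest by Dixon's criterion, which chance meets in about 1 group in 20. Control B had 2 CAMK2B peaks where every other control had 1, through a gap within the shared region. Control C1 had 2 CALM3 peaks where every other control had 1. With whole numbers this small, any lone animal with another count meets the criterion, so the rate of 1 in 20 does not hold for these counts.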

How the results depend on the processing

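Of 196 recomputed values with a test, 145 kept their sign, 9 changed it, 42 were 0 in one of the settings compared and so have no sign to keep, and 0 passed the adjusted threshold (smallest adjusted p 0.360). A further 3 could not be tested, 1 of them with the opposite sign. The difference in ADCY1 peaks per animal, 0 over all animals, ran from -1.0 in numbered to 1.33 in single-letter animals. CAMK2B kept its sign throughout (log2 difference in exonic bases 0.01 to 0.24). CALM3 turned to -0.14 in the numbered animals alone (0.40 in the single-letter animals), and so did the replicate block on the same 3 pairs. ADCY1 turned to -0.05 in males alone and to -0.49 in the numbered animals alone and with the replicate block (0.89 in the single-letter animals), and ranged from -0.12 to 0.31 with 1 animal left out. Nothing in the labels pairs C1 to C3 with S1 to S3: the deviations from the group means of same-numbered animals correlated at -0.125, -0.0439 and 0.0522 over 81 genes, and the block cannot give a p below 0.250. With 1 animal left out, the CAMK2A difference in presence ran from -8.33 to 20.0 percentage points and that of its region nearest the 3′ end from -16.7 to 20.0. Genes with more exonic bases after sevoflurane at an unadjusted p under 0.05 (8) were 4 with equal lists, 4 in females, 0 in males, in either naming style and with the block, and 4 to 15 with 1 animal left out; in neither naming style (3 against 2, 3 against 3) can the test go below 0.10. Regions more often present (19) were 11 at p-values up to 1e-05, 4 with equal lists, 0 in males and 22 to 68 with 1 animal left out. Genes more often present (27) were 10, 4, 0 and 31 to 85. The numbers of regions and genes tested in these settings are not given here. Signalling genes at an unadjusted p under 0.05 (0) were 1 in females and 0 to 2 with 1 animal left out. In males alone, 2 against 2, no test can pass 0.05. With equal lists CAMK2B, CALM3 and ADCY1 still had a peak in all 11 animals. They were chosen by their presence in every list, so this describes them and is not a test.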
